A study of Mus musculus with 9 samples.

Results

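Liver sinusoidal endothelial cells were followed through 10 genes that mark them: the scavenger and hyaluronan receptors Stab1, Stab2, and Lyve1, the lectin Clec4g, the Fc receptor Fcgr2b, the growth factor receptor Kdr, the junction proteins Pecam1 and Cdh5, the liver protein Oit3, and the ligand Bmp2. A gene was included if its symbol was on this list and its value was above 0 in at least 1 liver. All 10 met this rule, of 23183 gene symbols measured, and all 10 were above 0 in each of the 9 livers. Poly(A) RNA came from livers of male C57BL/6J mice, an inbred strain prone to diet-induced obesity, with 3 mice in each group and a library for each. The ND group (mice 6, 7, and 9) ate a normal diet with 14% fat. The HFD group (mice 1, 2, and 3) ate a high-fat diet with 60% fat. The PRF 50 group (mice 3, 9, and 10) ate the same high-fat diet and was given 50 mg/kg/day of a polymethoxyflavone-rich fraction from jinkyool (Citrus sunki) leaf in the last 5 of the 10 weeks of feeding. The age in the labels was postnatal day 100 for all mice, and the mouse numbers name animals within a group.

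Sinusoidal endothelial cells line the liver's capillaries. They lack a continuous basement membrane and are pierced by open pores, so that plasma reaches the hepatocytes directly. They clear waste molecules, modified lipoproteins, and small immune complexes from blood through scavenger and Fc receptors, and they send signals to hepatocytes, among them BMP2 and BMP6, which switch on the iron hormone hepcidin. In fatty liver these cells are known to lose their pores and to take on features of ordinary capillaries. Kdr, Pecam1, and Cdh5 are shared with endothelium of other vessels, and Fcgr2b, Lyve1, and Stab1 are also made by some macrophages, so the list is not exclusive to this cell type.

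Values are on the scale log2(FPKM + 1), where FPKM is the number of fragments scaled by transcript length and sequencing depth, and this reading was inferred from the values themselves. The highest value of HFD 2, 22.44, belongs to the short RNA Rnu6, which is at 0 in the other 8 livers. The highest values of the other libraries lie between 14.10 and 14.64. In ND 9 that value, 14.51, belongs to the short RNA Snord49a, which is likewise at 0 in the other 8 livers. The highest value of any member was 5.46. A value of exactly 0 is no sign of silence, as the albumin gene Alb has it in every one of the 9 livers. The absolute depth of the libraries is unknown, and relative depths read from the low values, with HFD 1 set to 1, ranged from 0.966 in PRF 50 10 to 1.59 in HFD 3. The mean of the members on the log2 scale was 2.81 ± 0.37 (SD, n = 3) for ND, 2.27 ± 0.54 for HFD, and 2.69 ± 0.32 for PRF 50 livers. Summed over the 10 members, the level was 92.5 ± 23.4 FPKM in ND, 58.2 ± 30.0 FPKM in HFD, and 82.0 ± 25.8 FPKM in PRF 50 livers. In whole liver RNA, fewer sinusoidal endothelial cells and less RNA per cell cannot be told apart.

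Levels differed more between members than between groups. Clec4g had the highest mean over the 9 livers, 4.85 on the log2 scale and 30.5 FPKM, and it made up between 29.4% (HFD 1) and 43.1% (ND 7) of the summed level of the members. Fcgr2b followed at 18.05 FPKM and Oit3 at 5.67 FPKM. The others lay between 4.01 FPKM (Cdh5) and 2.29 FPKM (Stab1), in the order Cdh5, Pecam1, Bmp2, Lyve1, Kdr, Stab2, and Stab1 on the log2 scale. Clec4g was above Fcgr2b, and Fcgr2b above Oit3, in 9 of 9 livers, and Oit3 was above Cdh5 in 8 of 9. From Cdh5 downward, neighbours in the order differed by 0.04 to 0.18 on the log2 scale, less than the SD of that difference over the livers. Levels are per length of transcript and are compared between genes on that basis alone.

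The genes lie on separate chromosomes apart from Stab2 and Oit3 on chromosome 10 and Clec4g and Cdh5 on chromosome 8 (GRCm38, GENCODE M21). Cdh5 and Bmp2 are on the plus strand and the other members on the minus strand. Of the 50-base stretches of Fcgr2b transcripts, 7.44% were also found in another gene, with 4.96% of all stretches in Fcgr3, and for the other members this share was 0. Exons of Stab1, Stab2, Clec4g, and Fcgr2b overlap an exon of another gene on the other strand (Nt5dc2, Gm16268, Gm16553, and Gm38204). The library kit keeps the strand, but whether strand was used in quantification is not given in the sources used here, so reads of these pairs may not have been separated.

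RefSeq start-site windows (GRCm38.p6, 250 bases before to 50 bases after the start) were matched for 5 of the 10 members: Stab1, Stab2, Clec4g, Fcgr2b, and Kdr. Lyve1, Pecam1, Cdh5, Oit3, and Bmp2 were not matched. The windows were searched on both strands for short motifs of GATA factors (AGATAA and TGATAA) and ETS factors (CAGGAA and CCGGAA), families with members that act in endothelial cells. An ETS motif was present in 4 of 5 windows and in 41.4% of all 32851 windows (CAGGAA in 30.6%, CCGGAA in 14.9%). A GATA motif was present in 0 of 5 windows and in 18.6% of all windows (AGATAA in 11.2%, TGATAA in 9.05%). Shown are the windows of Stab1 and Kdr, the pair of members that varied most closely together over the livers, of Clec4g, the most abundant member, and of Stab2, which went its own way in 1 liver. They are Stab1 at chr14:31168592-31168891, Kdr at chr5:75978406-75978705, Clec4g at chr8:3720602-3720901, and Stab2 at chr10:87007893-87008192, each printed 5′ to 3′ along the minus strand, on which the gene is transcribed. Capitals mark the ETS motifs, as written or as the reverse complement (TTCCTG and TTCCGG). A match is a description of the letters and does not show binding. Counted from the start, the motif began at base -117 and, reversed, at base -13 in Stab1, at base -153 (reversed) in Kdr, at base -216 in Clec4g, and at base -138 in Stab2.
Stab1: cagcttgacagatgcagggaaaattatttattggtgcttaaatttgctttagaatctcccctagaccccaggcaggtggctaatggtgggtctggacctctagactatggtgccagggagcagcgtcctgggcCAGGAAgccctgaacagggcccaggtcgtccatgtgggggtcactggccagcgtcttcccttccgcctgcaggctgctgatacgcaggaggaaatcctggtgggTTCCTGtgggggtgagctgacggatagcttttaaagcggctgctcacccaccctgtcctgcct
Kdr: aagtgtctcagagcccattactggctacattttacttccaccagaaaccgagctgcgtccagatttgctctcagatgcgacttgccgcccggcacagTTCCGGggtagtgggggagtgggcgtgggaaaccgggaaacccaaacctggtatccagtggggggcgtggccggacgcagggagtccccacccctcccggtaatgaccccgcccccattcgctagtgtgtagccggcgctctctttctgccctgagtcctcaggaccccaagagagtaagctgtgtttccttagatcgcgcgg
Clec4g: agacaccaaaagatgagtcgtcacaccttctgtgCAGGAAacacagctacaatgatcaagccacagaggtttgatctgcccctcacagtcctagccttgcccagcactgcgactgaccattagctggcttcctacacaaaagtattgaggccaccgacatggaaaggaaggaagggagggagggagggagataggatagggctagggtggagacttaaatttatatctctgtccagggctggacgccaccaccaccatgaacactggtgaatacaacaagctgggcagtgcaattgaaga
Stab2: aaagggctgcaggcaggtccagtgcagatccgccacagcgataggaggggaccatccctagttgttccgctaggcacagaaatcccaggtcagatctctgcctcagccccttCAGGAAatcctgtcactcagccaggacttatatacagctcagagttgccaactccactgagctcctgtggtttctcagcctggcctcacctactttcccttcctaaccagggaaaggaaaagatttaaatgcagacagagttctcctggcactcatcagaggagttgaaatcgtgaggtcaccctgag

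HFD 1 stood apart from the other livers in these genes. It had the lowest value of the 9 livers in 8 of 10 members, against 9.82% of all genes averaging 1 FPKM or more, and the lowest of its group in 10 of 10, against 35.2%. Its members summed to 26.6 FPKM, compared with 61.6 FPKM in HFD 2 and 86.4 FPKM in HFD 3. At the other end, ND 9 was the highest of the 9 livers in 6 members (10.9% of all genes) and PRF 50 10 in 4 (8.48%). These livers summed to 117.0 and 111.7 FPKM, and the others to 70.5 (ND 6), 89.9 (ND 7), 69.6 (PRF 50 3), and 64.8 FPKM (PRF 50 9).

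**Figure D1:**
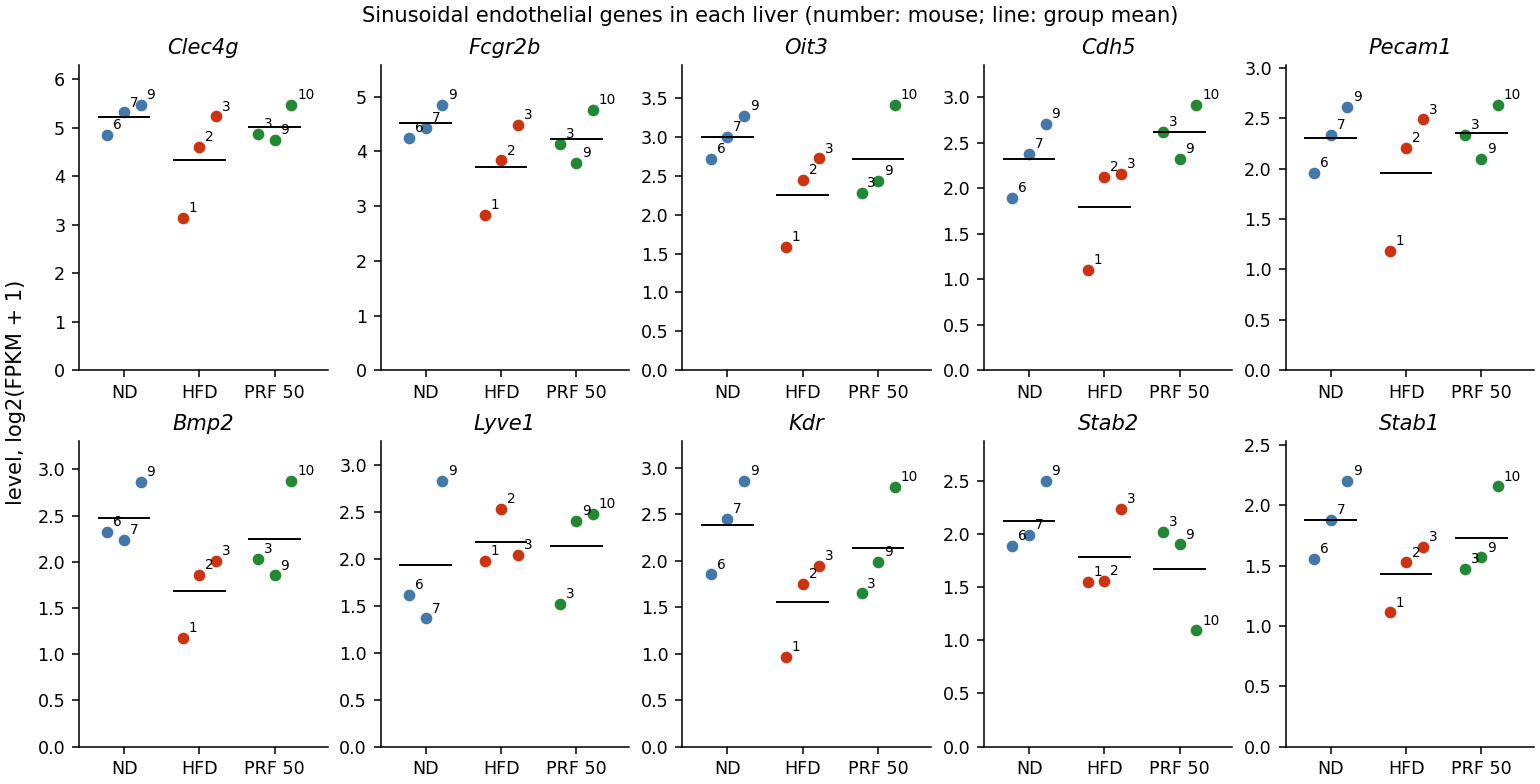
Level of each of the 10 members in each liver, in log2(FPKM + 1), 1 panel per gene with its own vertical range, by group (ND, HFD, PRF 50). Points are single livers with their numbers and lines are group means (n = 3). HFD 1 is the lowest point in 8 of 10 panels, and in Stab2 the lowest point is PRF 50 10.

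Stabilin-1 and stabilin-2 are large scavenger receptors that remove modified proteins, lipids, and, for stabilin-2, hyaluronan from blood. For Stab1 the log2 levels were 1.56, 1.88, and 2.20 in ND 6, 7, and 9, 1.11, 1.53, and 1.66 in HFD 1, 2, and 3, and 1.47, 1.57, and 2.16 in PRF 50 3, 9, and 10. Stab2 measured 1.89, 1.99, and 2.50 in the ND livers, 1.55, 1.56, and 2.24 in the HFD livers, and 2.02, 1.90, and 1.09 in the PRF 50 livers, each in the same order. All groups overlapped in both genes. In PRF 50 10, Stab1 was the second highest value of the 9 livers while Stab2 was the lowest. Lyve1, a hyaluronan receptor also found on lymphatic vessels and some macrophages, read 1.62, 1.37, and 2.83 in ND, 1.98, 2.54, and 2.04 in HFD, and 1.53, 2.40, and 2.48 in PRF 50 livers. Its ND livers spanned both the lowest and the highest value of all 9, and it was the only member with a higher mean in HFD (2.19) than in ND (1.94).

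Clec4g encodes a C-type lectin that binds glycans on pathogens and on T cells. It stood at 4.86, 5.31, and 5.46 in the ND livers, 3.14, 4.60, and 5.23 in the HFD livers, and 4.86, 4.74, and 5.46 in the PRF 50 livers. On the linear scale this was 7.82 FPKM in HFD 1 and 43.2 FPKM in ND 9. Fcgr2b encodes the inhibitory IgG receptor through which these cells take up small immune complexes. Its values were 4.25, 4.43, and 4.85 in ND, 2.84, 3.83, and 4.48 in HFD, and 4.14, 3.79, and 4.75 in PRF 50 livers. In both genes HFD 1 was more than 1 log2 unit below every ND and PRF 50 liver except PRF 50 9 in Fcgr2b, and HFD 3 lay within the range of the ND livers.

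Kdr, the main signalling receptor for VEGF-A, was at 1.85, 2.45, and 2.85 in ND, 0.96, 1.75, and 1.94 in HFD, and 1.65, 1.99, and 2.79 in PRF 50 livers. HFD 3 lay above ND 6, so that these groups overlapped by a single liver. The adhesion protein Pecam1 read 1.96, 2.33, and 2.61 in ND, 1.19, 2.21, and 2.49 in HFD, and 2.33, 2.10, and 2.63 in PRF 50 livers. Cdh5, the cadherin of endothelial junctions, read 1.90, 2.38, and 2.71 in ND, 1.10, 2.13, and 2.16 in HFD, and 2.61, 2.33, and 2.92 in PRF 50 livers. Every PRF 50 liver was above every HFD liver in Cdh5, and in Pecam1 only HFD 1 was apart.

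Oit3, a liver protein with a zona pellucida domain, was at 2.71, 2.996, and 3.27 in ND, 1.58, 2.45, and 2.72 in HFD, and 2.28, 2.43, and 3.41 in PRF 50 livers. HFD 3 exceeded ND 6 by under 0.01, which left these groups just overlapping. Bmp2, the ligand that reaches hepatocytes from the sinusoid, was at 2.32, 2.24, and 2.86 in ND, 1.18, 1.86, and 2.01 in HFD, and 2.03, 1.85, and 2.87 in PRF 50 livers. All 3 HFD livers lay below all 3 ND livers. PRF 50 9 lay within the HFD range, PRF 50 3 between the ranges, and PRF 50 10 just above the ND range.

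Livers of the same group differed more in these genes than in most others. The SD within groups on the log2 scale had a median of 0.491 over the members and 0.161 over 10048 genes, and it was 0.154 over genes in the members' range of levels. Clec4g had a larger SD than 98.7% of the 10048 genes (0.682) and Stab1, with the smallest SD of the members, a larger one than 89.8% (0.327). Part of this leaned on HFD 1. The SD of Clec4g was 1.07 in HFD, compared with 0.32 in ND and 0.38 in PRF 50 livers. For Pecam1 it was 0.68, 0.33, and 0.27 in the same order. The part of each gene's variance over the 9 livers that lay between groups was close to that of other genes, with medians of 32.5% for the members and 35.3% for all genes. It was highest in Cdh5 (45.9%) and Bmp2 (45.2%) and lowest in Lyve1 (4.95%).

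**Figure D2:**
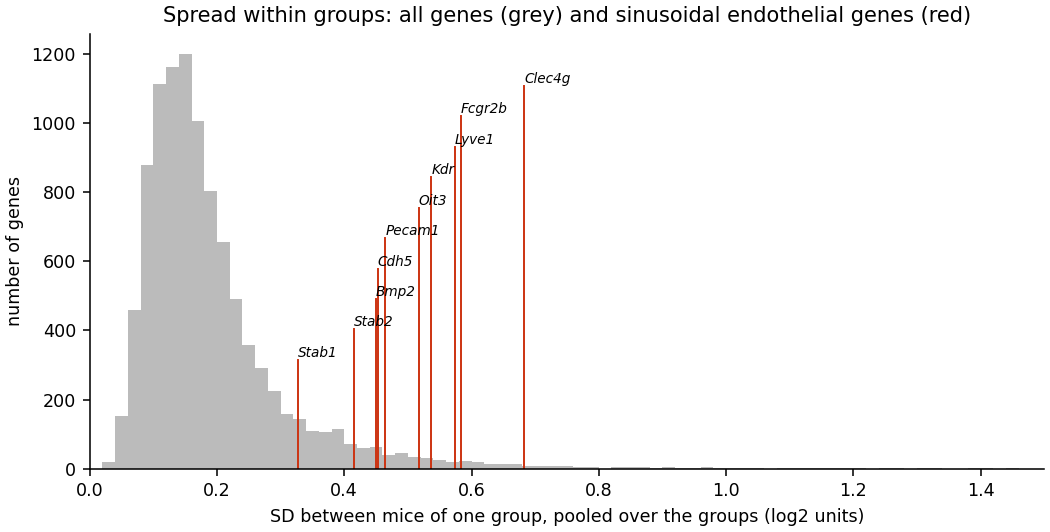
SD within groups in log2 units (horizontal axis) for 10048 genes averaging 1 FPKM or more, as a histogram of gene counts (vertical axis), with a line for each of the 10 members. The axis ends at 1.5, which leaves out 26 genes. All members lie in the upper tail, from 0.327 (Stab1) to 0.682 (Clec4g).

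The HFD and ND groups were compared to ask what the high-fat diet does to these genes. Members were lower in HFD livers in 9 of 10 cases, with Lyve1 the exception, and the median log2 difference was -0.64, compared with -0.01 over all genes tested. None of these differences passed the test. At an adjusted p under 0.05 (limma, Benjamini-Hochberg adjustment over all 9978 genes tested), 0 of 10 members and 1.33% of all genes (133) were past the threshold. At an unadjusted p under 0.05 there were 3 members, Bmp2, Kdr, and Oit3, and 1504 genes in all, or 30% and 15.1%. Without overlap between the groups were 1 of 10 members (Bmp2, lower in HFD) and 20.7% of all genes. Differences are on the log2(FPKM + 1) scale, which understates the change of genes with low levels.

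Bmp2 had the smallest adjusted p-value of the members in this comparison, with a log2 difference of -0.79 (standard error 0.25, 95% interval from -1.36 to -0.22, limma adjusted p = 0.195). Kdr differed by -0.84 (standard error 0.31, limma adjusted p = 0.270) and Oit3 by -0.74 (standard error 0.28, limma adjusted p = 0.282). Clec4g differed by -0.89 with a standard error of 0.47 (limma adjusted p = 0.435), the largest difference at a pseudocount of 1, but Kdr (-1.12) and Bmp2 (-1.03) exceeded it (-0.93) at a pseudocount of 0.1. Also at a pseudocount of 1, Fcgr2b differed by -0.79 with a standard error of 0.37. Cdh5, Stab1, Stab2, and Pecam1 lay between -0.53 and -0.34. These sizes leaned on HFD 1. Without it the median of the members was -0.29, with Bmp2 at -0.54, Kdr at -0.54, Oit3 at -0.41, Fcgr2b at -0.35, and Clec4g at -0.29. Stab1 was then at -0.29, Stab2 at -0.23, Cdh5 at -0.18, and Pecam1 at 0.05. Other mice mattered too. Without ND 9 the median was -0.47, with Cdh5 at -0.34, Stab1 at -0.29, Pecam1 at -0.19, and Stab2 at -0.16. Without HFD 3 it was -0.83, with Clec4g at -1.34, Pecam1 at -0.60, and Stab2 at -0.57. Members at an unadjusted p under 0.05 numbered 7 without HFD 3 (9.68% of all genes), 1 without HFD 1 (15.3%), and 1 without ND 7 (10.9%). The count of members without overlap was 6 without ND 6, 7 without HFD 3, and 2 without ND 9. In the same sets of 5 livers the groups did not overlap in 34.8%, 26.6%, and 35.8% of all genes. For all genes the count past the threshold was 63 without ND 6, 39 without ND 7, 41 without HFD 2, and 35 without HFD 3.

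PRF 50 livers were compared with HFD livers to ask what the citrus fraction does on the same diet. Here 8 of 10 members were higher in the PRF 50 group, all but Stab2 and Lyve1, with a median log2 difference of 0.48, compared with -0.02 over all genes tested. None passed the test. With limma, 0 of 10 members and 3.59% of all 10084 genes tested (362) had an adjusted p under 0.05, while 1 member (Cdh5) and 2039 genes, 20.2% of all, had an unadjusted p under 0.05. Without overlap were 1 of 10 members (Cdh5, higher in PRF 50) and 26.2% of all genes, so neither count set the members apart from other genes. For Cdh5 the log2 difference was 0.82 (standard error 0.30, 95% interval from 0.13 to 1.52, limma adjusted p = 0.179). Clec4g differed by 0.70 (standard error 0.49), Kdr by 0.59 (0.34), Bmp2 by 0.57 (0.31), and Fcgr2b by 0.51 (0.42), and the values for Oit3, Pecam1, and Stab1 were 0.46, 0.39, and 0.30.

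HFD 1 carried much of this comparison as well. Without it the median of the members was 0.11, Cdh5 was at 0.48, Clec4g at 0.10, Kdr at 0.30, Bmp2 at 0.32, and Fcgr2b at 0.07, and Stab1, Oit3, and Pecam1 were at 0.14, 0.12, and 0.01. Without PRF 50 10 the median was 0.25. The number of members without overlap was 2 without HFD 3 (34.6% of all genes), without PRF 50 3 (35.7%), or without PRF 50 9 (36.3%). At an unadjusted p under 0.05 there were 3 members without HFD 3 (15.7% of all genes), and 0 without PRF 50 3 (16.6%) or without PRF 50 10 (19.0%). The count of all genes past the threshold was 215 without HFD 1, 31 without HFD 2, 15 without HFD 3, 40 without PRF 50 3, and 168 without PRF 50 10.

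Between PRF 50 and ND livers, which differ in diet and in treatment, the members lay closer together. The log2 differences ran from -0.45 (Stab2) to 0.29 (Cdh5), 7 of 10 were below 0, and the median was -0.21, compared with -0.03 over all genes tested. With limma, 0 of 10 members and 0.458% of all 10051 genes tested (46) had an adjusted p under 0.05, and 0 members and 1256 genes, 12.5% of all, had an unadjusted p under 0.05. Without overlap were 0 of 10 members and 19.9% of all genes. The smallest adjusted p-value was that of Stab2 (limma adjusted p = 0.518, standard error 0.27), and intervals such as -0.87 to 0.43 for Bmp2 and -1.02 to 0.53 for Kdr still allow sizeable differences either way. The median of the members was -0.38 without PRF 50 10, -0.34 without ND 6, -0.06 without PRF 50 9, -0.04 without PRF 50 3, and -0.02 without ND 9, and without PRF 50 10 there were 3 members without overlap (31.3% of all genes) and 3 at an unadjusted p under 0.05 (11.9%). All genes past the threshold numbered 71 without PRF 50 10, 26 without PRF 50 9, 17 without ND 6, 8 without PRF 50 3, and 4 without ND 7. The 3 comparisons share mice in pairs, so their differences are not independent of each other.

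**Figure D3:**
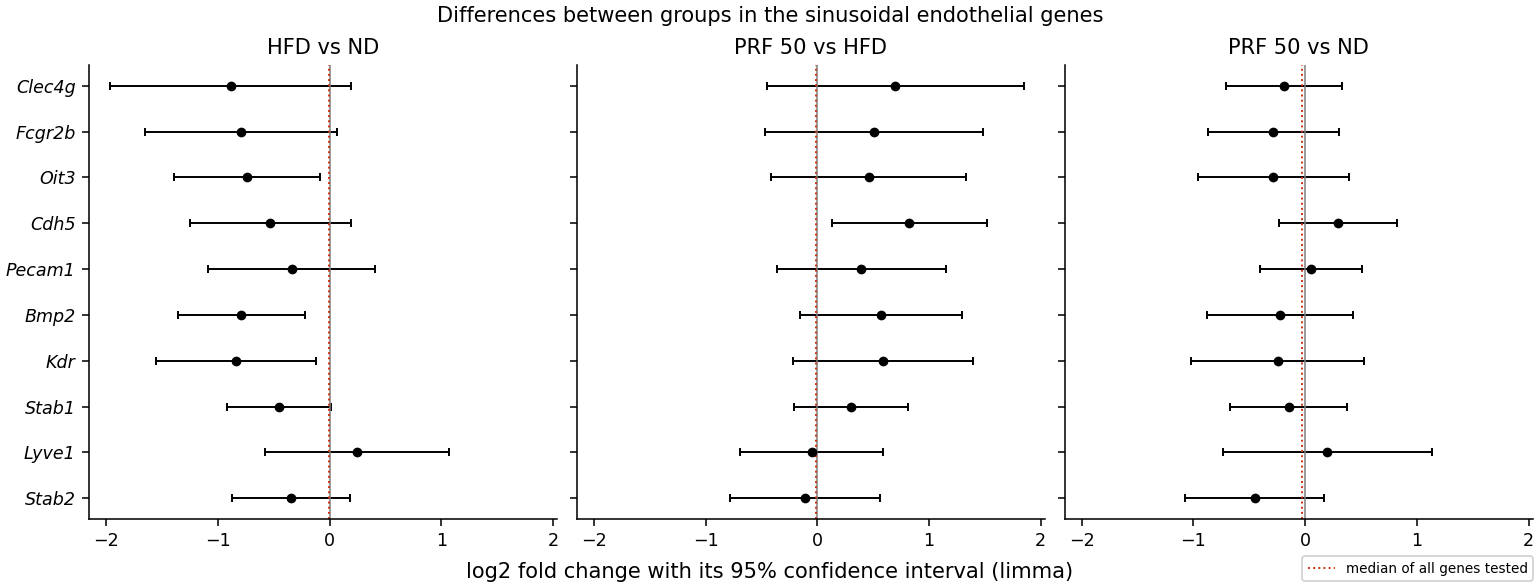
Log2 difference of each member (horizontal axis, log2(FPKM + 1) scale) in HFD vs ND, PRF 50 vs HFD, and PRF 50 vs ND, with 95% intervals from limma (n = 3 mice per group). Only Bmp2, Kdr, and Oit3 in HFD vs ND and Cdh5 in PRF 50 vs HFD have intervals that leave out 0, and no member had an adjusted p under 0.05.

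The members varied together from liver to liver. Over the 9 livers and 45 pairs of members, Pearson's r of the log2 values had a median of 0.84 (from -0.08 to 0.99), and it was 0.84 after the group means were removed, so the shared variation was present within groups. Stab1 and Kdr were the closest pair, with r of 0.99. All 28 pairs among Stab1, Clec4g, Fcgr2b, Kdr, Pecam1, Cdh5, Oit3, and Bmp2, a grouping made after the values were seen, had r between 0.81 and 0.99. Without HFD 1 the median over all 45 pairs was 0.67, and without the 2 livers farthest from the median, HFD 1 and ND 9, it was 0.58, or 0.75 with group means removed. These r-values describe 9 livers that share their processing, and no p-value is attached to them.

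Stab2 and Lyve1 followed the other members least, with median r of 0.14 and 0.27. For Stab2 this rested on a single liver. Without PRF 50 10, its median r with the other members was 0.77, and 36 of the 45 pairs had r above 0.5, compared with 28 in all 9 livers. For Lyve1, whose median r was 0.44 with group means removed, the median r stayed between 0.07 (without ND 9) and 0.39 (without ND 7) whichever liver was left out.

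**Figure D4:**
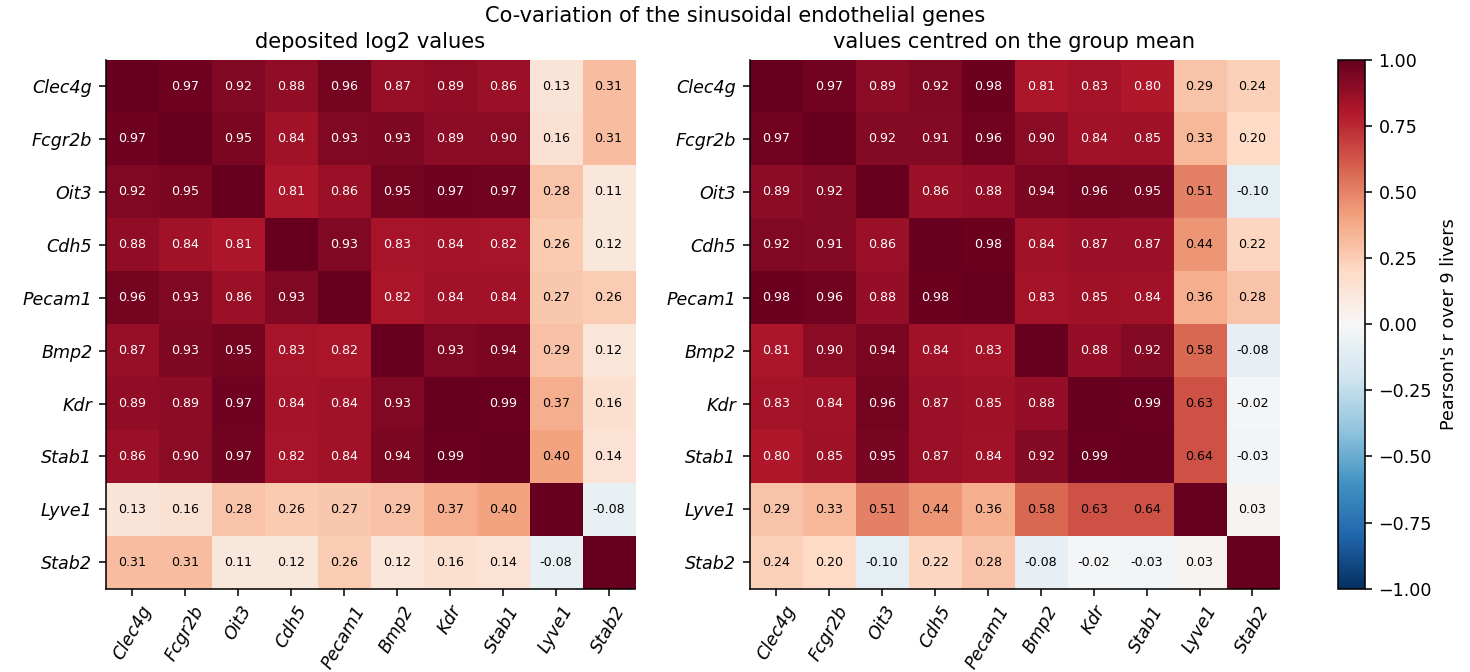
Pearson's r between the log2 values of each pair of the 10 members over 9 livers, as a colour grid with genes on both axes, for the values as they are and after the group means were removed. A block of 8 genes has r of at least 0.80 in both grids. Stab2 is pale in both, and Lyve1 is pale in the first and reaches 0.64 (with Stab1) in the second.

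Outside the lists considered here, the genes most like the members were ranked by Pearson's r with the mean standardized member value over the 9 livers. Of 10048 genes, 57 had r above 0.9, and 22 of these were on the lists, members included. The leading 8 outside the lists were Tmem2 (r of 0.986), Plxnd1 (0.982), Gimap6 (0.978), Ets1 (0.975), Arhgap23 (0.971), Ppap2a (0.968), Pde2a (0.967), and Cyp4b1 (0.959). Tmem2 encodes a cell-surface hyaluronidase, Plxnd1 a semaphorin receptor of blood vessels, and Ets1 a transcription factor. Tmem2 read 1.20, 1.35, and 1.69 in ND, 0.62, 1.27, and 1.43 in HFD, and 1.17, 1.20, and 1.60 in PRF 50 livers, with HFD 1 again the lowest and ND 9 the highest. Without HFD 1 and ND 9, r for these genes lay between 0.844 (Cyp4b1) and 0.983 (Plxnd1).

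Other genes of sinusoidal endothelium were mostly lower in HFD than in ND livers and higher in PRF 50 than in HFD livers, as the members were. This list held Gpr182, Dnase1l3, Cd209b, Clec1b, Mrc1, Ehd3, Scarf1, Gata4, Maf, Plxnc1, Il1a, Cd55, Aqp1, F8, and Adam23, with the water channel Aqp1 the most abundant. In HFD vs ND, 13 of 13 genes tested were lower in HFD (median -0.51), and in PRF 50 vs HFD 14 of 14 were higher in PRF 50 (median 0.44). Much of this rested on HFD 1, without which the medians were -0.16 (12 of 14 lower) and 0.22 (12 of 14 higher), and on ND 9 and PRF 50 10, without which they were -0.34 and 0.27. In PRF 50 vs ND, 7 of 14 were lower, and the median of -0.04 moved between -0.25 (without PRF 50 10) and 0.04 (without ND 9). With limma 0 genes of this list had an adjusted p under 0.05 in any comparison, and 3, 4, and 1 had an unadjusted p under 0.05. In HFD vs ND the count was 7 without ND 6 (15.4% of all genes) or HFD 3 (9.68%), 2 without HFD 2 (9.94%), and 1 without ND 7 (10.9%), ND 9 (16.9%), or HFD 1 (15.3%). It was 8 in PRF 50 vs HFD without HFD 3 (15.7%), 2 there without HFD 1 (19.5%) or PRF 50 10 (19.0%), and in PRF 50 vs ND 4 without PRF 50 10 (11.9%) and 2 without PRF 50 9 (9.53%). Clec1b departed from the members, with every PRF 50 liver (3.82, 3.40, and 3.73) above every ND and HFD liver (at most 3.23), and did not pass the test. In the Kupffer cell and macrophage list, 12 of 12 genes likewise had every PRF 50 liver above every ND and HFD liver. Which cells made the Clec1b RNA was not tested. Aqp1 stood at 4.17, 4.70, and 5.30 in ND, 3.19, 4.34, and 4.78 in HFD, and 4.10, 4.36, and 5.23 in PRF 50 livers. The list mean and the mean standardized member value had Pearson's r of 0.975 and Spearman's rho of 0.967 over the 9 livers, and r of 0.968 without HFD 1 and ND 9.

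Genes of endothelium in general varied with the members over the livers. Of 22 genes such as Tek, Tie1, Eng, Esam, and Egfl7, 18 of 19 tested were lower in HFD than in ND (median -0.32), 16 of 17 were higher in PRF 50 than in HFD (median 0.16), and 14 of 19 were lower in PRF 50 than in ND (median -0.12). The first comparison had a median of -0.09 without HFD 1 (11 of 19 lower) and -0.10 without ND 9. The second turned to -0.06 without HFD 1 (12 of 19 lower) or without PRF 50 10 (10 of 17 lower), and lay between 0.28 and 0.33 without any other mouse. The third ran from -0.28 (without PRF 50 10) to 0.05 (without ND 9). None had an adjusted p under 0.05 with limma (0, 1, and 1 at an unadjusted p under 0.05). The most abundant, the TGF-beta coreceptor Eng, differed by -0.17 in HFD vs ND (standard error 0.25), and the secreted factor Egfl7 by -0.51 (0.24). Pearson's r of this list's mean with the member value was 0.972 (rho 0.833), and 0.90 without HFD 1 and ND 9. Genes of capillaries, large vessels, and lymphatics were mostly low, with 4 of 15 at 1 FPKM or more. Vcam1, an adhesion molecule for leukocytes, was the only gene of these endothelial lists past the threshold, higher in PRF 50 than in HFD livers by 0.64 (limma adjusted p = 0.0403), and it passed in 1 of the 6 fits with a mouse left out (without PRF 50 9). It did not pass with all 9 mice in 1 fit, with no minimum level, or after quantile normalization. Vcam1 had r of 0.27 with the mean standardized member value, and which cells made its RNA was not tested. The diaphragm protein of capillary pores, Plvap, the most abundant of this list, differed by 0.34 in HFD vs ND and 0.57 in PRF 50 vs ND (standard errors 0.19 and 0.23) and did not pass.

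A difference between each member and the mean of the general endothelial genes in the same liver was taken after the data were seen. It sets the members beside vessel cells as a whole, and no test was made on it. The mean of the general endothelial genes was low, 1.96 in ND, 1.67 in HFD, and 1.87 in PRF 50 livers. On the log2(FPKM + 1) scale an equal fold change moves low genes less than high ones such as Clec4g and Fcgr2b. The difference can therefore shrink in a liver where all vessel genes are lower by the same factor. Averaged over the members it was 0.76, 0.84, and 0.96 in the ND livers, 0.47, 0.57, and 0.74 in the HFD livers, and 0.84, 0.79, and 0.84 in the PRF 50 livers. HFD 3 was only 0.02 below ND 6. In Clec4g, Fcgr2b, Stab2, and Pecam1, HFD 3 lay within or above the range of the ND livers, and the mean of Lyve1 was higher in HFD (0.51) than in ND livers (-0.02). For Bmp2 the difference was 0.59, 0.34, and 0.60 in ND, -0.01, -0.01, and 0.05 in HFD, and 0.37, 0.13, and 0.66 in PRF 50 livers. For Kdr it was 0.12, 0.55, and 0.60 in ND, -0.23, -0.12, and -0.02 in HFD, and -0.01, 0.26, and 0.57 in PRF 50 livers. In Kdr, HFD 3 and PRF 50 3 were 0.01 apart. Cdh5 had its highest values in PRF 50 livers, 0.96, 0.60, and 0.70, compared with -0.09 to 0.26 in HFD and 0.16 to 0.48 in ND livers.

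**Figure D5:**
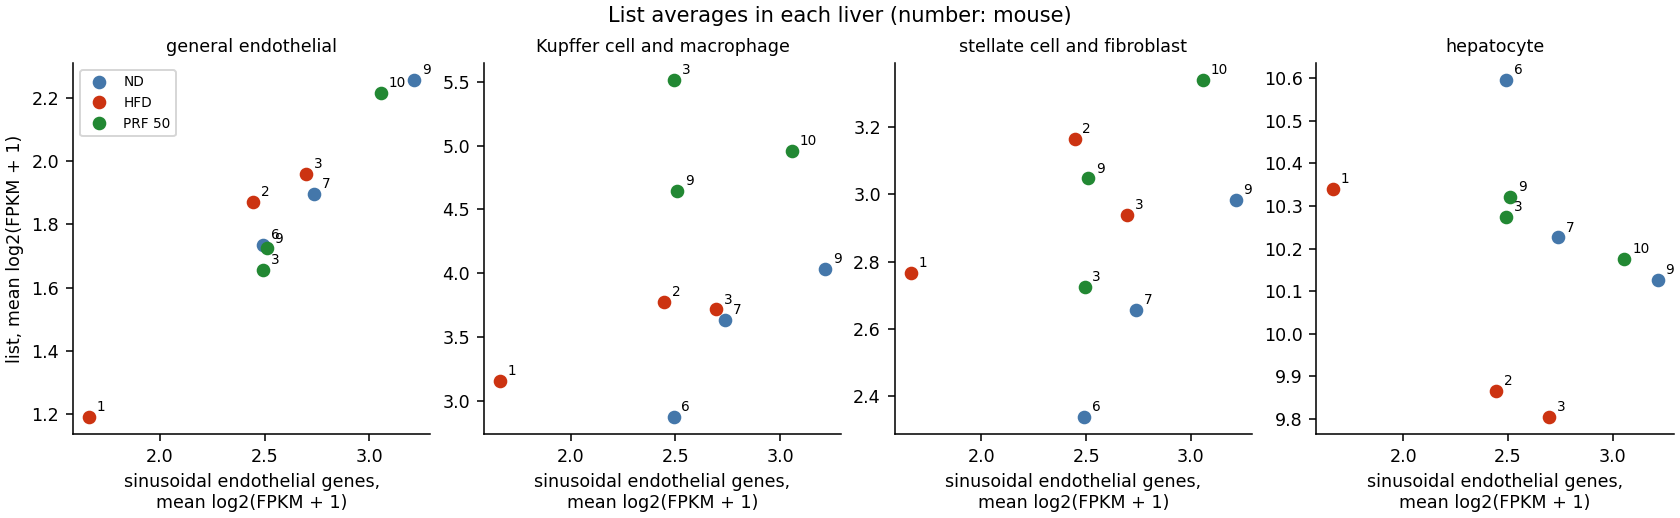
Mean log2(FPKM + 1) of the members (horizontal axis) and of a list (vertical axis) in each liver, in separate panels for general endothelial, Kupffer cell and macrophage, stellate cell and fibroblast, and hepatocyte genes. Points are single livers with their numbers, coloured by group, and lists hold genes averaging 1 FPKM or more. The general endothelial list rises with the members from HFD 1 to ND 9, while the Kupffer cell list is highest in the 3 PRF 50 livers at any level of the members.

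Around Kdr, the genes of its ligands and partner receptors were read as a list. Of 6 genes, only Flt4, the receptor of VEGF-C, had r above 0.5 with the mean standardized member value (0.982), and the median over the list was -0.04. Flt4 was at 1.68, 1.74, and 2.40 in ND, 0.66, 1.62, and 1.86 in HFD, and 1.59, 1.78, and 2.36 in PRF 50 livers. Vegfa, the main ligand of the receptor, was at 4.67, 4.30, and 4.28 in ND, 4.19, 3.97, and 3.81 in HFD, and 4.25, 4.13, and 3.92 in PRF 50 livers, so that every HFD liver was below every ND liver, with a log2 difference of -0.43 (limma adjusted p = 0.234). The coreceptor Nrp1 differed by -0.17 in HFD vs ND. Vegfb, which binds the related receptor FLT1, was lower in PRF 50 than in ND livers by a log2 difference of -0.68 (standard error 0.10, limma adjusted p = 0.0416). This call was lost in all 6 fits with a mouse left out, with all 9 mice in 1 fit, and with no minimum level, and the differences stayed below 0. Of 6 genes tested, 0, 0, and 1 had an adjusted p under 0.05 in the 3 comparisons (2, 0, and 1 at an unadjusted p under 0.05), with medians of -0.30 (-0.15 without HFD 1), -0.03, and -0.04. Vegfd was not analysed here under that symbol, and Figf, an older symbol of the same gene, was.

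Beside Bmp2, other genes of secreted ligands were read as a list, and only some reached 1 FPKM. Which cells made them was not tested. Of Bmp6, Wnt2, Wnt9b, Rspo3, Hgf, and Angpt2, 3 were tested in each comparison, and 0 had an adjusted p under 0.05 (0 at an unadjusted p under 0.05), with medians of 0.16, 0.16, and 0.12. Rspo3, an enhancer of WNT signals, differed by 0.16, -0.04, and 0.12 in the 3 comparisons, and Hgf by 0.32, 0.18, and 0.50, each within its error. Over the 9 livers the list mean had Pearson's r of 0.74 with the member value. It was 0.95 with group means removed and 0.68 without HFD 1 and ND 9. Single genes had r from 0.33 (Rspo3) to 0.87 (Wnt2). Bmp6 was low, with 0.86, 0.80, and 1.38 in ND, 0.71, 0.65, and 0.84 in HFD, and 0.68, 0.55, and 1.41 in PRF 50 livers, and like Bmp2 it was highest in PRF 50 10 and ND 9.

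Target genes of BMP signals mostly had lower values in HFD than in ND livers. Of 9 target genes, 2 passed the test in HFD vs ND, both lower: Id3 by -1.19 (limma adjusted p = 0.0116) and Smad9 by -1.21 (limma adjusted p = 0.0278). The list median was -0.61, and 6 of 9 had an unadjusted p under 0.05. Over all genes tested in this comparison, 1.33% passed and 15.1% had an unadjusted p under 0.05. Id3 passed in 4 of 6 fits with a mouse left out (not without HFD 2 or HFD 3) and Smad9 in 1 of 6 (without ND 7). Id3 did not pass with all 9 mice in 1 fit (limma adjusted p = 0.0876), and Smad9 did not with no minimum level (limma adjusted p = 0.0972). Hamp, which encodes hepcidin, was at 12.86, 11.87, and 12.10 in ND, 10.999, 8.82, and 10.08 in HFD, and 11.31, 8.20, and 11.34 in PRF 50 livers, with a log2 difference of -2.31 in HFD vs ND (limma adjusted p = 0.0940). No target passed in PRF 50 vs HFD (0 of 9, with 0 at an unadjusted p under 0.05, median 0.01). In PRF 50 vs ND 0 of 9 passed, with 6 at an unadjusted p under 0.05 (12.5% of all genes) and a median of -0.78. The mean log2 level of the targets was 4.61, 4.14, and 4.36 in HFD livers and 5.13, 3.51, and 4.32 in PRF 50 livers. PRF 50 3 lay above every HFD liver and PRF 50 9 below every HFD liver, so the median of 0.01 combines livers that went opposite ways. Liver by liver the mean of the targets did not track the members, with Pearson's r of 0.09 and rho of 0.02 with the member value. Single targets had r from -0.40 (Hamp2) to 0.64 (Smad9), with a median of 0.13 and 1 of 9 above 0.5. Hamp2 differed by 1.23 in HFD vs ND, in the other direction from Hamp.

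Among BMP receptors, coreceptors, and inhibitors, 1 of 9 genes tested passed in HFD vs ND and 0 in the other comparisons (2, 1, and 0 at an unadjusted p under 0.05), with medians of 0.01, 0.02, and 0.03. The gene that passed was Hfe2, which encodes the coreceptor hemojuvelin and is also called Hjv, a symbol not analysed here. It was higher in HFD than in ND livers by 0.52 (limma adjusted p = 0.0438) and passed in 0 of 6 fits with a mouse left out and neither with no minimum level nor without a trend, with differences from 0.48 to 0.55 over all alternatives. The transferrin receptor gene Tfr2 and the protease gene Tmprss6, which trims hemojuvelin, differed by -0.16 and 0.05.

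Fcgr2b is the inhibitory member of a receptor family whose activating members are made mainly by macrophages, and these were higher in PRF 50 than in HFD livers. Fcgr3 was at 1.81, 2.20, and 2.47 in ND, 2.01, 2.38, and 2.62 in HFD, and 3.61, 3.02, and 3.44 in PRF 50 livers, so that all PRF 50 livers lay above all others, while for Fcgr2b the groups overlapped. Of 5 genes, 4 passed in PRF 50 vs HFD, all higher: Fcer1g by 1.12, Fcgr4 by 1.04, Fcgr3 by 1.02, and Fcgr1 by 0.81 (limma adjusted p from 0.0321 to 0.0468). The neonatal receptor gene Fcgrt differed by -0.28 and did not pass. Over all genes tested in this comparison, 3.59% passed. These calls were sensitive to single mice, with 0 of the 4 past the threshold without HFD 1, HFD 2, HFD 3, or PRF 50 10, 1 without PRF 50 3, and 2 without PRF 50 9. With no minimum level 0 passed, and after quantile normalization 2. In HFD vs ND and PRF 50 vs ND, 0 genes passed (0 and 4 at an unadjusted p under 0.05), with medians of 0.10 and 1.07. The sequence that Fcgr2b shares with Fcgr3 means that a small part of its value may stem from the other gene.

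Other cell types were read in the same libraries, and their part in the members' values was not tested. The Kupffer cell and macrophage list (12 of 12 genes found, Cd5l the most abundant, none at 0 in all livers) summed to 108.3, 203.4, and 266.2 FPKM in ND, 137.7, 222.3, and 221.3 FPKM in HFD, and 751.2, 425.3, and 487.8 FPKM in PRF 50 livers. Of the 12 genes, 10 passed in PRF 50 vs HFD (3.59% of all genes), all higher (limma, list median 1.43). Among them were the Kupffer cell genes Clec4f, by 1.38, and Timd4, by 1.49. The others were Vsig4, Cd5l, Adgre1, C1qa, C1qb, C1qc, Csf1r, and Cd68. Of these 10, 7 passed without HFD 1, 1 without HFD 2, 0 without HFD 3, 1 without PRF 50 3, 8 without PRF 50 9, and 5 without PRF 50 10, and 2 passed with no minimum level and 7 with all 9 mice in 1 fit. None passed in PRF 50 vs ND (0 of 12, with 12 at an unadjusted p under 0.05, median 1.40), and in HFD vs ND 0 (0 at an unadjusted p under 0.05, median 0.03). The list mean had r of 0.37 and rho of 0.40 with the member value, and r of 0.61 with group means removed. PRF 50 3, highest in the Kupffer list, was below the mean in the members.

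The hepatocyte list (9 of 10 symbols found, 8 at 1 FPKM or more, Apoa1 the most abundant, and its defining gene Alb at 0 in all 9 livers) had a mean log2 level of 10.60, 10.23, and 10.13 in ND, 10.34, 9.87, and 9.80 in HFD, and 10.27, 10.32, and 10.18 in PRF 50 livers. Its sum was 26591, 19253, and 18404 FPKM in ND, 24227, 19339, and 16656 FPKM in HFD, and 22917, 23546, and 21274 FPKM in PRF 50 livers. Within groups it ran opposite to the members, with r of -0.91 after the group means were removed and -0.28 over the 9 livers as they are. In each of the ND and HFD groups, the liver lowest in the members was the highest in this list. With limma, 0 of 8 genes passed in any comparison (3, 2, and 0 at an unadjusted p under 0.05), with medians of -0.30, 0.36, and -0.12. Without HFD 3 the first was -0.16 and the second 0.22, and without HFD 1 the second was 0.58. Tf was not analysed here.

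Stellate cell and fibroblast genes (12 of 12 found, Dcn the most abundant) summed to 111.0, 134.3, and 180.2 FPKM in ND, 156.2, 187.2, and 150.7 FPKM in HFD, and 134.8, 202.1, and 237.2 FPKM in PRF 50 livers. Their mean had r of 0.35 with the member value and 0.78 with group means removed, and 0 passed in any comparison (limma, 2, 2, and 0 at an unadjusted p under 0.05, medians of 0.26, 0.16, and 0.45). Without ND 6 the first median was 0.10 and the third 0.18. HFD 1 had the lowest mean log2 level of its group in this list (2.77, compared with 3.17 and 2.94 in HFD 2 and HFD 3), but not of all livers. Capillary, large-vessel, and lymphatic genes summed to 17.0, 20.95, and 26.6 FPKM in ND, 20.4, 27.5, and 26.6 FPKM in HFD, and 25.9, 29.3, and 37.3 FPKM in PRF 50 livers. Of these, 1 of 4 passed in PRF 50 vs HFD (Vcam1) and 0 in the other comparisons (0, 1, and 2 at an unadjusted p under 0.05, medians of 0.22, 0.34, and 0.57). Their mean had r of 0.39 with the member value over the 9 livers and 0.93 with group means removed.

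The remaining lists showed no gene past the threshold. For cholangiocytes (Spp1 the most abundant, 7 of 7 found), 2, 2, and 3 genes were tested, 0, 0, and 2 had an unadjusted p under 0.05, and the medians were 0.12, 0.27, and 0.33. For lymphocytes and leukocytes (S100a8 the most abundant, 9 of 9 found), 3 were tested each time, 0, 2, and 1 had an unadjusted p under 0.05, and the medians were 0.09, 1.49, and 0.97 (the second 0.63 without PRF 50 3 and 2.45 without PRF 50 10). This list summed to 59.8 FPKM in PRF 50 3 and 20.3 FPKM in PRF 50 9, and to between 5.43 and 13.1 FPKM in the other livers. For platelets and red cells (Hba-a1 the most abundant, 7 of 8 found), 4 were tested, 0, 0, and 2 had an unadjusted p under 0.05, and the medians were -0.13, 0.48 (0.15 without HFD 1), and 0.27 (-0.18 without ND 9). Their r with the member value was -0.03, 0.02, and 0.03. HFD 1, the liver in which the members were lowest, had a platelet and red cell sum of 88.1 FPKM, the lowest of the 9, next to 92.3 FPKM in ND 9, in which they were highest.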

How the data were processed

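Libraries were made with the NEBNext Ultra II Directional kit and sequenced as paired ends on an Illumina NovaSeq. According to the authors, trimming used FASTX_Trimmer and BBMap, alignment TopHat, FPKM estimates Cufflinks, and a geometric normalization EdgeR. The submitters' processing notes list mm10. The deposited values are log2 values, taken here to be log2(FPKM + 1), because the lowest value is 0; the scale and the pseudocount are thus inferred. No value above 0 was identical between libraries.

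For each comparison, genes averaging 1 FPKM or more in its 6 mice were fitted with limma 3.58.1 in R 4.3.3 (lmFit, eBayes with a trend, two-sided), with Benjamini-Hochberg adjustment over all genes tested. Correlations were computed with pandas 2.3.3 in Python 3.11.15.

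The genes named are all 10 members, listed genes past an adjusted p of 0.05 in any comparison, the 2 genes of each list with the highest level, and the 8 genes outside the lists most like the mean standardized member value. Genes named beyond this rule, such as Flt4 and Bmp6, were chosen after their values were seen. Members and lists were chosen with earlier results of these data known. Alternatives were all 9 mice in 1 fit, each mouse left out, a pseudocount of 0.1, no minimum, a minimum of 10 FPKM, quantile and median-of-ratios scaling, and no trend. Those for overlap, co-variation, listed genes, and list medians were chosen after seeing the data.

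Each group has 3 mice, and the members varied more within groups than most genes. None of the differences in the members passed the test. The counting error of each value is unknown. Whole liver RNA does not separate cell types, and the cause of the differences between livers was not tested.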

Additional observations from a re-analysis of the deposited data

How the results depend on the processing

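No paired analysis was possible because the mouse numbers name animals within a group, and HFD and PRF 50 share only number 3, ND and PRF 50 only number 9, and HFD and ND none.

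In every alternative, 0 of 10 members had an adjusted p under 0.05 with limma. A minimum of 10 FPKM left 2 members, Clec4g and Fcgr2b.

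All genes past the threshold in HFD vs ND numbered 37 with no minimum and 35 (without HFD 3) to 140 (without HFD 1) with a mouse left out. Those in PRF 50 vs HFD numbered 126 with no minimum and 15 (without HFD 3) to 242 (without PRF 50 9) with a mouse left out. Those in PRF 50 vs ND numbered 107 with all 9 mice in 1 fit, 11 with no minimum, and 4 (without ND 7) to 71 (without PRF 50 10) with a mouse left out.

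Members without overlap in HFD vs ND numbered 2 after quantile normalization (22.7% of all genes) and 1 to 7 (without HFD 3, 26.6% of all genes) with a mouse left out. In PRF 50 vs HFD the range was 1 to 2 (33.8% to 38.7% of all genes), and in PRF 50 vs ND 0 to 3 (without PRF 50 10, 31.3% of all genes).

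Some small differences changed direction with a mouse left out. In HFD vs ND, Lyve1 ran from -0.0383 (without ND 7) to 0.69 (without ND 9), and Pecam1 from -0.60 (without HFD 3) to 0.0469 (without HFD 1). In PRF 50 vs HFD, Stab2 ran from -0.28 (without PRF 50 3) to 0.18 (without PRF 50 10), and Lyve1 from -0.22 (without PRF 50 10) to 0.26 (without PRF 50 3). In PRF 50 vs ND, Stab1 ran from -0.36 (without PRF 50 10) to 0.0130 (without ND 9), and Lyve1 from -0.0880 (without ND 7) to 0.64 (without ND 9). In the same comparison, Kdr ran from -0.57 (without PRF 50 10) to 0.000978 (without PRF 50 3), and Pecam1 from -0.12 (without ND 6) to 0.21 (without ND 9). The median of the general endothelial genes ran from -0.0604 (without PRF 50 10) to 0.33 (without PRF 50 3) in PRF 50 vs HFD, and to 0.0546 (without ND 9) in PRF 50 vs ND from -0.28 (without PRF 50 10), where a minimum of 10 FPKM gave 0.0761. The median of the other sinusoidal genes ran from -0.25 (without PRF 50 10) to 0.0380 (without ND 9) in PRF 50 vs ND. The calls of Hfe2, Fcgr1, Fcgr4, and Vegfb were lost with each mouse left out, without a change of direction. The cause was not tested.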
